A study of Equus caballus with 34 samples.

Results

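The 32 genes described here cover cholesterol handling, from the first step of synthesis to sterol sensing, lipoprotein uptake, lysosomal release, storage and efflux. They were taken as a list of gene names, set by their known roles in the pathway. They were matched to array probes by the gene name, gene number or protein name that the array files give. A probe was kept if at least 5 of the 34 arrays read it well above background. All 32 had a matching probe, and 31 were measured, among 10405 named genes with a kept probe. FDPS, the farnesyl diphosphate synthase, was left out. Its only probe carries the FDPS gene number but is described as RUSC1, another gene. RNA came from 2 layers of dominant follicles of the horse ovary, the granulosa cells (GC) that line the follicle and the theca wall (TW) around them, from follicles in early dominance (ED), in late dominance (LD) or close to ovulation (PO). Each stage had 5 GC arrays. The TW arrays numbered 5 at ED, 9 at LD and 5 at PO. The labels name no treatment, age or animal, so whether both layers of a follicle were sampled is not known, and the series design calls the arrays biological replicates. The theca wall is a whole tissue that holds vessels and immune cells besides theca cells.

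Cells make cholesterol from acetyl-CoA through mevalonate, isoprenoid units and squalene, which is closed to lanosterol and then trimmed and reduced to cholesterol. SREBP factors, carried by SCAP and held back by INSIG proteins when sterols are plentiful, switch on most of these enzymes together. Steroid-making ovarian cells use cholesterol as the starting material of their hormones, and draw it from synthesis, from lipoproteins and from stored esters.

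A level below is log2 of the processed signal minus the array's 75th percentile, so that 0 is the level of that percentile and a difference of 1 is a doubling. It compares arrays for 1 probe and not probes with each other. Differences carry their standard error (SE) from limma. A gene was called where its p, adjusted by Benjamini and Hochberg's method across every feature fitted (genes and unnamed probes alike), was under 0.05. Between 64.3% and 82.5% of spots were well above background. Granulosa markers (9 of 9 called higher in GC, median difference 3.55) and theca markers (8 of 8 higher in TW, median -4.06 for GC minus TW) separated the layers as labelled. Slide 7 (1 TW ED, 1 TW PO and a pair of TW LD arrays) had 1285 to 1718 outlier-flagged spots per array, against 69 to 593 elsewhere. TW ED 4 and TW LD 1 stood low for many of the synthesis genes. Median centring in place of the 75th percentile moved the share of calls that were higher, over all features, from 38.8% to 49.4% for GC PO against LD, from 56% to 26.5% for TW PO against LD, from 52.7% to 30.4% for TW PO against ED and from 46.4% to 63.1% for the interaction of layer and stage. In tissue RNA, fewer cells of a type and less RNA per cell cannot be told apart.

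The results turn on probes of 60 bases, of which 9 of the 50 that match members lie over a gap in the genome. Their annotated ends are further apart than the probe is long, so they read spliced RNA across at least 1 intron. The probes below are shown because they lie over a gap and belong to genes that the results turn on: MVK and NSDHL for synthesis in GC, SCARB1 for uptake in GC, and SOAT1 and ABCG1 for storage and efflux in TW. Letters are in lower case throughout, 5′ to 3′, as the array files give them. Positions are those of the files, and the sources used here do not give the genome build: the MVK probe spans chr8:11445247-11441389 on the minus strand (3859 bases), the NSDHL probe chrUn:298692485-298693872 on the plus strand (1388 bases) and the SCARB1 probe chr8:24210408-24208045 on the minus strand (2364 bases). The SOAT1 probe spans chrUn:104992545-104993921 on the plus strand (1377 bases) and the ABCG1 probe chr26:4054785-4053571 on the minus strand (1215 bases), with start and end in transcript order.
MVK: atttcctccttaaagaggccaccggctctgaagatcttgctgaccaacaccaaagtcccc
NSDHL: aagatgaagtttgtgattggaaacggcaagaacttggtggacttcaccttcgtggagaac
SCARB1: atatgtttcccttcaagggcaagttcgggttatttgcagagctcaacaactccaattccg
SOAT1: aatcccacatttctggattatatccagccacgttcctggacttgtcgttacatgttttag
ABCG1: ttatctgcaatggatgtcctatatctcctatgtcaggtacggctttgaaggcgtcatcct

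In granulosa cells, the whole synthesis line stood higher before ovulation than at early dominance. All 6 measured genes from acetyl-CoA to the isoprenoid units rose (median difference 1.31), as did all 11 from squalene to cholesterol (median 1.52). Together with SCARB1, NPC1, INSIG1 and INSIG2, 21 of 30 tested members were called higher at PO than at ED and 0 lower. Over all 25088 features 21.6% were called higher and 22.4% lower, and the median difference was 0.04 against 1.13 for the members. The 9 members that were not called were SREBF1, SREBF2, SCAP, VLDLR, LIPA, NPC2, STARD4, SOAT1 and ABCA1, and ABCG1 was too dim in GC to be tested. The median member difference was above 0 within each of the 5 slides that hold GC arrays, from 0.77 to 1.64. Other cell types' markers moved between these stages: 5 of 10 leukocyte and macrophage markers (mean level -6.02 to -4.69 at ED and -4.76 to -2.12 at PO) and 4 of 6 smooth muscle and pericyte markers (-6.40 to -5.74 and -3.65 to -3.41) were higher at PO. Of 9 granulosa markers 6 were lower (2.44 to 3.28 at ED and -0.46 to 0.19 at PO). CNN1, DES and TYROBP, among the markers that were higher, were well above background on 0 of 5 ED arrays. The part of these cell types in the rise was not tested.

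Among the enzymes of the mevalonate branch, MVK, the mevalonate kinase, moved most. MVK lay in GC at -2.51, -2.26, -3.23, -3.49 and -2.30 at ED, -2.52, -2.34, -0.11, -2.39 and -2.71 at LD and -0.28, 0.05, -0.12, -0.84 and -0.21 at PO. Every PO array was above every ED array, and GC LD 3 alone among the LD arrays had reached the PO range. The rise from ED to PO was 5.57-fold, 2.48 ± 0.44 (SE, adjusted p = 0.000612), and that from LD to PO was 1.73 ± 0.44 (SE, adjusted p = 0.0175). With normexp and quantile normalization the rise from ED was 1.80, still called. ACAT2, here the cytosolic thiolase that joins acetyl-CoA units and not the sterol acyltransferase, lay at 2.34, 2.14, 2.13, 1.97 and 2.59 at ED, 3.05, 3.16, 3.75, 2.72 and 2.40 at LD and 4.02, 4.21, 3.84, 4.08 and 3.31 at PO. Its ED and PO ranges did not overlap, and 4 of 5 LD arrays lay above all ED arrays. ACAT2 was higher at PO by 1.66 ± 0.26 (SE, adjusted p = 0.000342) against ED and by 0.88 ± 0.26 (SE, adjusted p = 0.0344) against LD. PMVK, the phosphomevalonate kinase, lay at 1.07, 0.83, 0.28, 0.27 and 0.80 at ED, 1.16, 0.74, 1.76, 0.88 and 0.92 at LD and 1.88, 2.09, 1.93, 1.60 and 1.43 at PO. It rose by 1.14 ± 0.25 (SE, adjusted p = 0.00218) from ED to PO, without overlap. MVD, which makes the first isoprenoid unit, lay at -0.81, -0.52, -0.63, -0.91 and -0.71 at ED, -0.36, -1.02, 0.42, -0.17 and -0.57 at LD and 0.25, 0.93, 0.12, 0.12 and -0.53 at PO. The GC PO 5 array fell into the ED range, and the rise was 0.89 ± 0.29 (SE, adjusted p = 0.0212). IDI1, the isomerase of that unit, rose by 1.47 ± 0.52 (SE, adjusted p = 0.0326) although GC PO 4 read 1.5 against 3.74 to 4.23 on the other PO arrays. HMGCS1, which makes HMG-CoA, was nearest to the threshold, at 0.89 ± 0.35 (SE, adjusted p = 0.0483), and its call was lost without any 1 of 9 arrays (adjusted p = 0.0535 to 0.12). IDI1 lost its call without any 1 of 6 arrays (0.0643 to 0.0795) and MVD without GC PO 2 (0.0526).

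The later enzymes, which turn squalene into cholesterol, included the largest rises among the 17 measured synthesis members, those of TM7SF2 and HSD17B7. TM7SF2, a sterol reductase that acts right after the demethylase CYP51A1, lay in GC at -0.31, -1.26, -1.04, -0.43 and 0.47 at ED, 1.13, -1.13, 2.44, 0.04 and -0.67 at LD and 2.88, 2.76, 2.86, 2.25 and 2.03 at PO. GC LD 1 lay between the ED and PO ranges, GC LD 3 within the PO range, and the other LD arrays within the ED range. From ED to PO it rose 8.4-fold, 3.07 ± 0.56 (SE, adjusted p = 0.000704). NSDHL, which takes part in stripping methyl groups from the ring, lay at 1.45, 1.02, 0.34, 0.77 and 1.33 at ED, 1.40, 2.73, 3.06, 1.87 and 1.30 at LD and 3.70, 3.13, 3.51, 3.59 and 3.88 at PO. All 5 PO arrays were above all LD arrays as well as all ED arrays. The rise was 5.98-fold from ED, 2.58 ± 0.35 (SE, adjusted p = 0.000184), and 2.81-fold from LD, 1.49 ± 0.35 (SE, adjusted p = 0.0125). DHCR7, a terminal reductase that yields cholesterol, lay at 2.45, 2.38, 1.86, 1.66 and 2.92 at ED, 4.17, 2.53, 4.70, 2.76 and 1.98 at LD and 4.66, 4.86, 4.80, 4.40 and 4.95 at PO. It was 5.57-fold higher at PO than at ED, 2.48 ± 0.44 (SE, adjusted p = 0.000654), with GC LD 1 and GC LD 3 near the PO arrays and the other LD arrays near the ED arrays. CYP51A1 lay at 3.99, 3.35, 3.79 and 4.00 at ED, 5.15, 4.14, 4.94, 4.18 and 3.94 at LD and 5.59, 4.91, 5.33, 5.14 and 5.49 at PO, with GC ED 2 left out for an outlier flag and GC PO 3 saturated. Its rise from ED was 1.51 ± 0.29 (SE, adjusted p = 0.00108).

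HSD17B7, a ketoreductase of the same ring-stripping step, rose 7.03-fold (2.81, n = 4 ED and 5 PO arrays). MSMO1, the methylsterol oxidase, rose by 1.5, the isomerase EBP by 1.52 and the desaturase SC5D by 1.75. FDFT1, the squalene synthase, rose by 1.13, LSS, which closes squalene epoxide to lanosterol, by 0.85, and the epoxidase SQLE by 0.75. Adjusted p ran from 0.00141 (HSD17B7) to 0.02 (SC5D) over these 7 genes, and SC5D lost its call without GC PO 3 (0.052). With quantile normalization SQLE was at 0.39 (adjusted p = 0.129), with normexp at 0.28 (0.289) and with the deposited values at 0.28 (0.304), and its call was also lost with all 34 arrays in 1 fit (0.0605). IDI1 and HMGCS1 were not called under quantile normalization, normexp or the deposited values (adjusted p = 0.0715 to 0.0807), and HMGCS1 not with no filter on dim probes, slide as a fixed block or all 34 arrays in 1 fit (0.064 to 0.0838). The plot of 6 synthesis enzymes shows ED and PO apart in GC and the spread of the LD arrays.

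**Figure D1:**
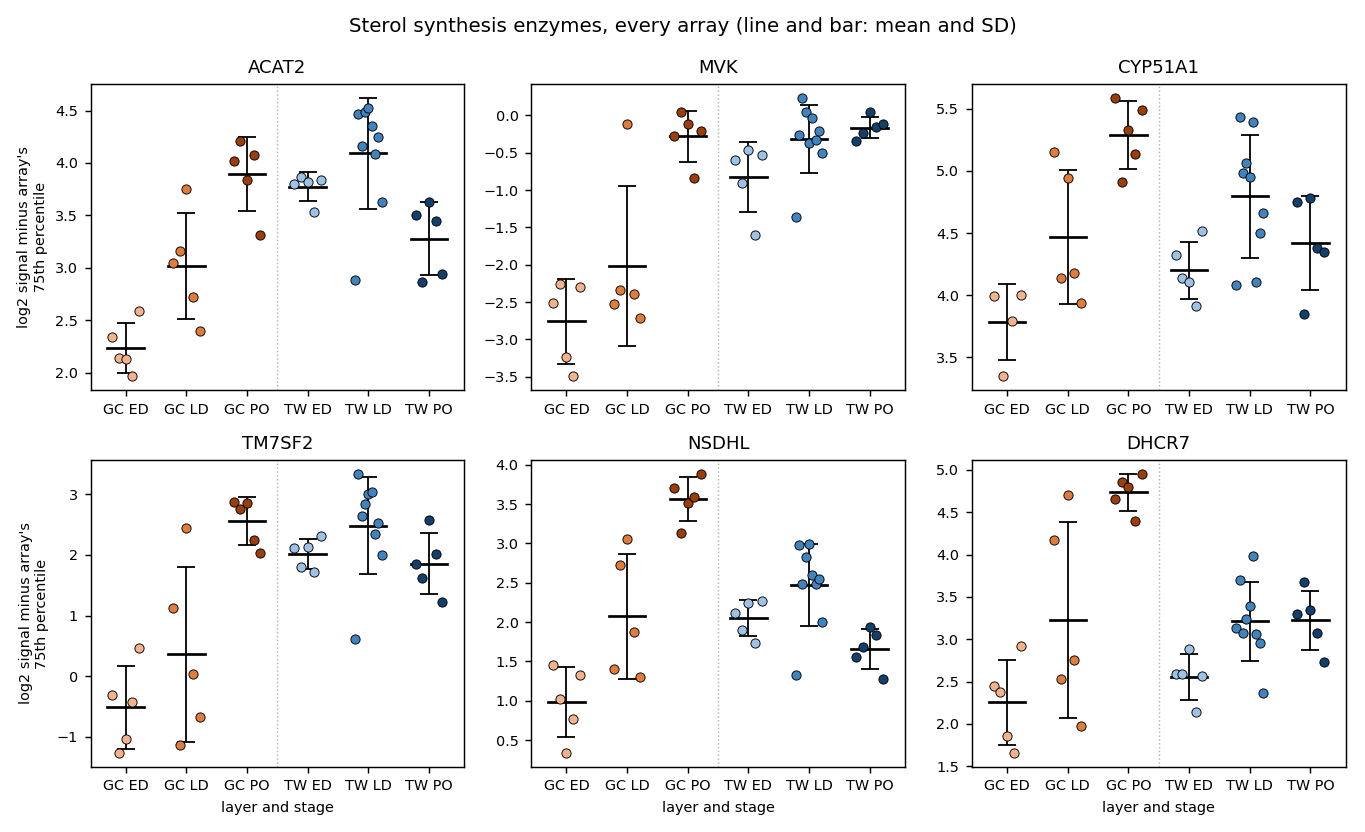
Level of 6 synthesis enzymes on each array, as log2 signal minus the array's 75th percentile, for GC and TW at ED, LD and PO; dots are arrays, lines and bars the mean and SD. In GC the 5 PO arrays of each gene lie above all ED arrays, while in TW the groups overlap for most genes and TW LD 1 is the lowest LD array in 5 of the 6 panels.

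Between LD and PO, the granulosa arrays gave calls for 6 of 30 members, all higher: MVK, ACAT2, LSS (0.97 ± 0.25 (SE, adjusted p = 0.0189)), TM7SF2 (2.20 ± 0.56 (SE, adjusted p = 0.0178)), NSDHL and DHCR7 (1.5 ± 0.44 (SE, adjusted p = 0.0326)). Over all features 6.77% were called higher and 10.7% lower, and 25 of 30 members had a positive difference (median 0.56, against 0.01 for all features). The count rested on the LD arrays: it was 15 (14 higher and 1 lower) without GC LD 3, and 3 without GC LD 4 or without GC LD 5. ACAT2 lost its call without any 1 of 7 arrays (adjusted p = 0.0551 to 0.0899) and DHCR7 without any 1 of 6 (0.0565 to 0.0841), while LSS lost it without GC LD 4 (0.0548) and TM7SF2 without GC LD 5 (0.0504). ACAT2 was also not called with quantile normalization (0.57, adjusted p = 0.123), normexp (0.57, 0.0878), the deposited values (0.58, 0.0943), no filter on dim probes (0.0504) or slide as a fixed block (0.0501), nor DHCR7 with normexp (1.24, 0.0505).

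From ED to LD in GC, 0 of 30 members were called by limma, and 10 had an unadjusted p under 0.05. Of 25088 features 0.00399% were called. The members' median was 0.58, with 26 of 30 above 0. As a mean over the 17 measured synthesis genes, each set to its own mean over 34 arrays, GC arrays lay at -0.88, -1.09, -1.38, -1.26 and -0.77 at ED, at 0.05, -0.72, 0.50, -0.57 and -0.99 at LD and at 0.76, 0.83, 0.69, 0.18 and 0.49 at PO. GC LD 1 and GC LD 3 were the high LD arrays, GC LD 5 lay within the ED range, and GC LD 2 and GC LD 4 lay between the ED range and GC LD 1. The same 2 high arrays had the highest leukocyte and macrophage marker levels at LD (-3.49 and -2.16, against -5.58 to -4.75 on the other 3). Other lists split the LD arrays otherwise. Smooth muscle and pericyte markers were at -3.25, -3.70 and -3.72 on GC LD 1, 2 and 3, against -5.75 and -6.19 on GC LD 4 and 5. Granulosa markers were lowest on GC LD 2 and 3 (0.09 and -0.52). Endothelial and theca markers were highest on GC LD 1 and 4. The part of these cell types in the spread was not tested. Without GC LD 5, 2 members were called.

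**Figure D2:**
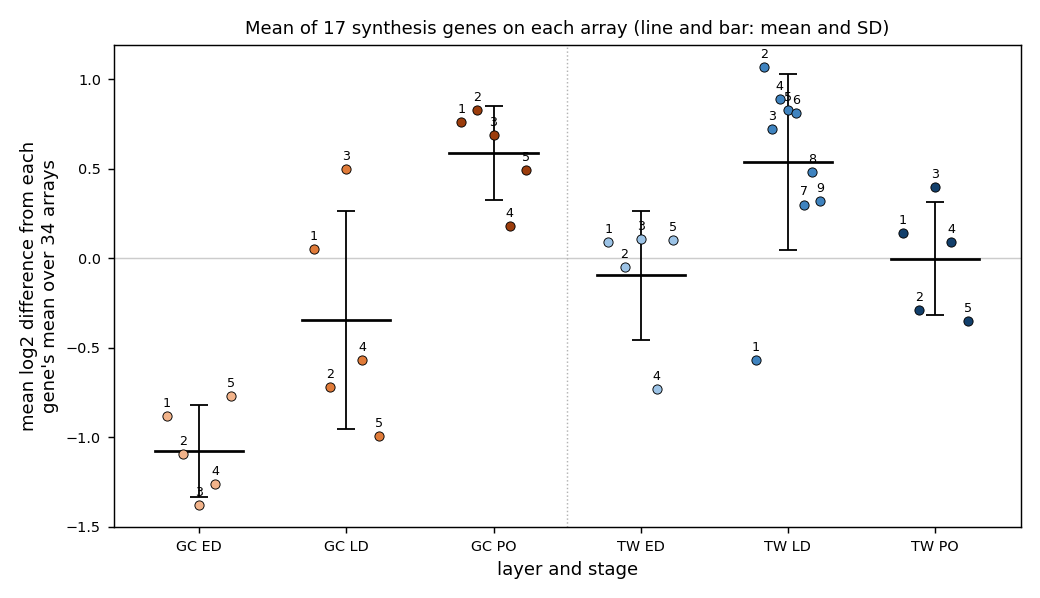
Mean log2 difference of 17 synthesis genes from their own mean over 34 arrays, 1 dot per array with its replicate number, for GC and TW at ED, LD and PO; lines and bars are the mean and SD. GC rises from -1.38 to -0.77 at ED to 0.18 to 0.83 at PO with LD spread between. The TW mean is highest at LD (0.54, against -0.09 at ED and 0 at PO). TW LD 1 lies at -0.57, and TW LD 7 (0.30) and TW LD 9 (0.32) lie below TW PO 3 (0.40).

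In the theca wall the synthesis genes followed another course. From ED to PO, 0 of 17 were called by limma, and 3 (MVK, LSS and DHCR7) had an unadjusted p under 0.05. From ED to LD, 30 of 31 members had a positive difference (median 0.66, all features 0.02), 19 with an unadjusted p under 0.05, yet 0 were called, against 0.0368% of 27204 features. The difference from LD to PO then had the opposite sign for most, and 6 members were called lower at PO: ACAT2, MVD, FDFT1, NSDHL, EBP and the sterol sensor SCAP. ABCG1 was higher, which makes 7 of 31 in all, against 8.74% of features called higher and 6.86% lower. The synthesis mean lay at 0.09, -0.05, 0.11, -0.73 and 0.10 at ED, from -0.57 to 1.07 (median 0.72) at LD and at 0.14, -0.29, 0.40, 0.09 and -0.35 at PO.

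MVD lay in TW at 0.10, 0.16, 0.21, -0.25 and 0.12 at ED, from -0.21 to 1.20 (median 0.72) over the 9 LD arrays, and -0.49, 0.02, -0.02, 0.05 and -0.75 at PO. It fell by 0.96 on the log2 scale from LD to PO (SE 0.21, adjusted p = 0.00965), and was lower at PO within each of the 5 slides that hold both stages. FDFT1 differed by -0.92 ± 0.20 (SE, adjusted p = 0.00923), with 3.38 ± 0.39 (SD, n = 9) at LD and 2.46 ± 0.37 (SD, n = 5) at PO. NSDHL lay at 2.12, 1.90, 2.24, 1.74 and 2.27 at ED, from 1.33 to 2.99 (median 2.55) over the 9 LD arrays, and 1.56, 1.68, 1.94, 1.84 and 1.28 at PO. TW PO 5 was below all LD arrays and the other PO arrays lay within the LD range, with a difference of -0.81 ± 0.23 (SE, adjusted p = 0.0245). ACAT2 lay at 3.80, 3.87, 3.82, 3.53 and 3.84 at ED, from 2.89 to 4.52 (median 4.25) over the 9 LD arrays, and 3.50, 2.87, 3.63, 3.45 and 2.94 at PO. ACAT2 differed between PO and LD by -0.82 ± 0.23 (SE, adjusted p = 0.0259), and EBP by -0.83 ± 0.25 (SE, adjusted p = 0.0315). TW LD 1 read lowest of the LD arrays for ACAT2 (2.89), NSDHL (1.33), EBP (2.88) and FDFT1 (2.46).

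The split of 1 higher and 6 lower was 3 and 5 with normexp and quantile normalization, and 2 and 5 with the deposited values. Without TW LD 1 the count from LD to PO was 13 (2 higher and 11 lower), without TW PO 1 it was 3, without TW PO 5 it was 2, and with slide as a fixed block it was 3. Within slides the median member difference was 0.68 on slide 1, which holds TW LD 1, and -0.68 to -0.25 on the other 4. EBP lost its call without any 1 of 7 arrays (adjusted p = 0.051 to 0.104), NSDHL, SCAP and ABCG1 without TW PO 1 or TW PO 5 (0.0518 to 0.0843), and ACAT2 without TW PO 2 or TW PO 5 (0.054 and 0.0859). SCAP was also not called with normexp or the deposited values (0.0553 and 0.0521), ACAT2 without slide 7 (0.0525) and NSDHL with all 34 arrays in 1 fit (0.0575). Leukocyte and macrophage markers rose in the same step (9 of 10, median 1.31; mean level -0.96 to 0.22 at LD and 0.03 to 1.56 at PO), and their part in the members' differences was not tested.

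Whether the change from ED to PO differed between the layers was tested as an interaction on all 34 arrays. It was larger in GC for 12 of 31 members and smaller for 2, against 13.6% and 15.7% of 28009 features, with a median of 0.93 for the members and -0.13 for all features. Of the 12, 11 were synthesis genes and the other SCARB1. TM7SF2 led with 3.23 ± 0.68 (SE, adjusted p = 0.000897), followed by NSDHL at 2.97 ± 0.43 (SE, adjusted p = 3.4e-05), ACAT2 at 2.15 ± 0.37 (SE, adjusted p = 0.000137) and HSD17B7 at 2.07 ± 0.75 (SE, adjusted p = 0.0405). MVK (1.82), DHCR7 (1.81), EBP (1.68), MSMO1 (1.39), FDFT1 (1.38), CYP51A1 (1.29) and MVD (1.20) completed the synthesis genes. The 2 smaller changes in GC were those of VLDLR and NPC2, described below. The chosen HSD17B7 probe was measured on 26 arrays. HSD17B7 lost its call without any 1 of 9 arrays (adjusted p = 0.0524 to 0.127), and SCARB1 lost it without GC ED 3 (0.0506). A second HSD17B7 probe, well above background on 34 arrays, differed from ED to PO by 2.98 in GC and 0.85 in TW. HSD17B7 was also not called with quantile normalization, normexp, the deposited values or slide as a fixed block (0.0697 to 0.118), SCARB1 with quantile normalization or normexp (0.0615 and 0.0553), and MSMO1 with quantile normalization (0.0556). The plot of changes by gene sets the layers side by side.

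**Figure D3:**
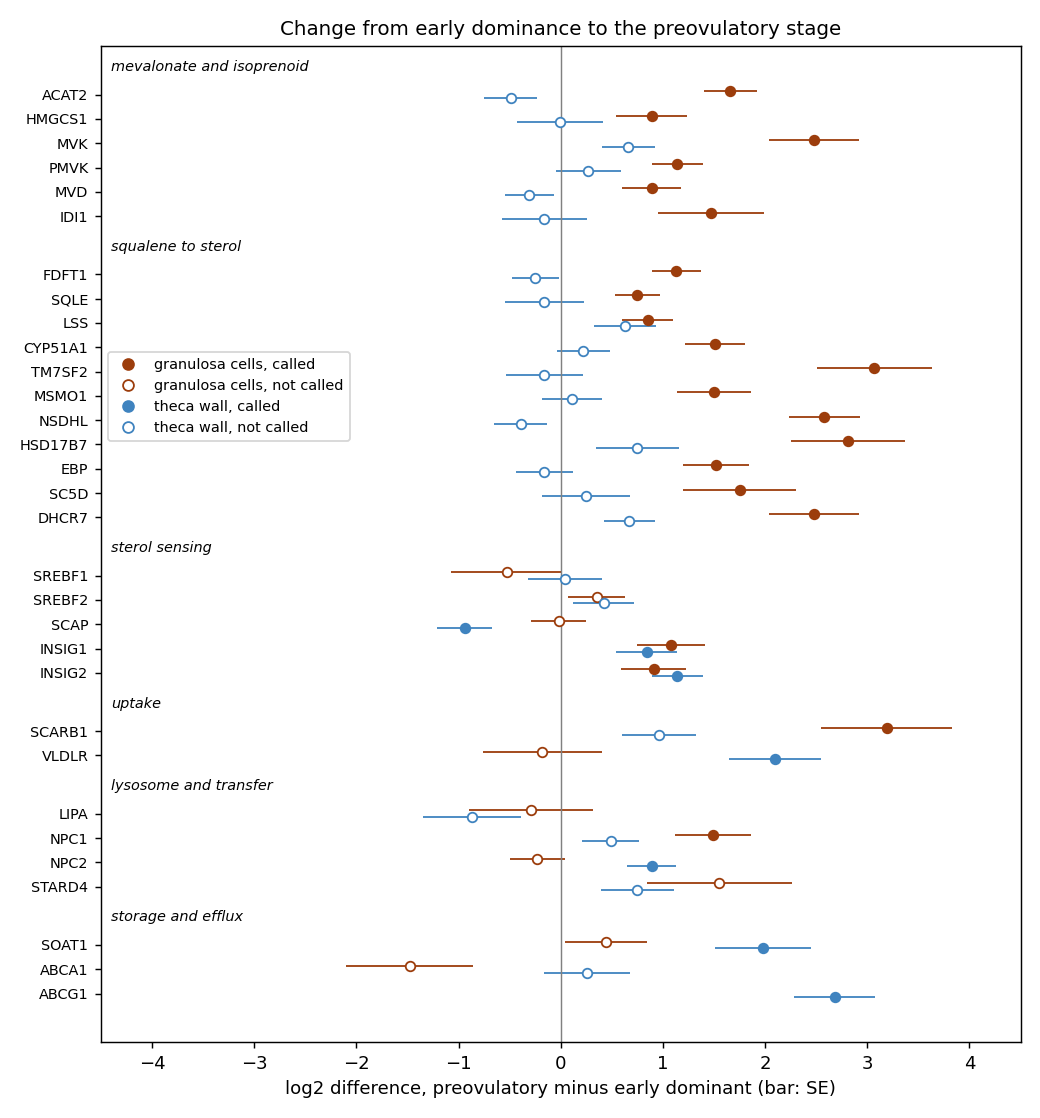
Log2 difference between PO and ED in GC (brown) and TW (blue) for the 31 measured members by pathway step, with the SE as a bar; filled dots were called at an adjusted p under 0.05. All 17 synthesis genes are filled in GC and open in TW, while SCAP, VLDLR, NPC2, SOAT1 and ABCG1 are filled in TW alone. ABCG1 has no GC value. A dot filled in a single layer is no test of a difference between layers. Among the genes filled in TW alone, the interaction was called only for VLDLR and NPC2.

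Of the 5 genes for sterol sensing, only the INSIG genes were called between stages in GC. SREBF1 and SREBF2, which encode the SREBP factors, were called in 0 of 6 stage comparisons each. SREBF2 stayed between group means of -4.68 (GC ED) and -4.19 (TW PO). SREBF1 lay in GC at -2.37, -2.10, -2.65, -1.60 and -3.06 at ED, -4.73, -4.01, -2.30, -1.39 and -3.09 at LD and -3.24, -2.08, -3.06, -2.44 and -3.62 at PO, and in TW at -4.48, -4.33, -4.35, -4.91 and -3.78 at ED, from -4.47 to -3.28 (median -4.07) over the 9 LD arrays, and -4.45, -2.69, -4.73, -4.52 and -5.24 at PO. It was 2.69-fold higher in GC over the stages, 1.43 ± 0.25 (SE, adjusted p = 1.7e-05). SCAP, the SREBP carrier, overlapped between all stages in GC (5.21 ± 0.51 (SD, n = 5) at ED, 5.00 ± 0.44 (SD, n = 5) at LD and 5.20 ± 0.10 (SD, n = 5) at PO). In TW, SCAP lay at 4.74, 4.71, 4.75 and 4.81 at ED, from 3.68 to 5.11 (median 4.79) over the 9 LD arrays, and 3.69, 3.64, 4.17, 3.87 and 3.69 at PO, with TW ED 4 left out for an outlier flag. All 5 TW PO arrays were below all ED arrays, a difference of -0.94 ± 0.27 (SE, adjusted p = 0.0177), and against LD of -0.82 ± 0.23 (SE, adjusted p = 0.0238). The changes of SCAP from ED to PO in GC and TW were not called different (interaction 0.93 ± 0.38 (SE, adjusted p = 0.0639)).

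INSIG1, itself a known SREBP target, and INSIG2, which both hold SREBP back, rose from ED to PO in both layers. INSIG2 lay in GC at -0.66, -0.95, -1.68, -1.73 and -0.81 at ED, 0.44, 0.00, -0.35, -0.92 and -0.83 at LD and 0.23, -0.19, -0.24, -0.86 and -0.22 at PO, and in TW at -1.53, -1.69, -1.63, -1.80 and -1.31 at ED, from -1.18 to 0.27 (median -0.78) over the 9 LD arrays, and -0.02, -1.16, -0.09, -0.64 and -0.35 at PO. Every TW PO array and every TW LD array lay above all TW ED arrays. The rise was 1.14 ± 0.25 (SE, adjusted p = 0.00393) in TW and 0.91 ± 0.32 (SE, adjusted p = 0.0305) in GC, and the difference between layers was -0.23 ± 0.40 (SE, adjusted p = 0.697). INSIG1 lay in GC at 0.05, -0.50, -0.93, -0.63 and -0.01 at ED, 0.26, -1.18, 0.52, -0.24 and -0.01 at LD and 1.10, 1.11, 0.72, 0.16 and 0.29 at PO, and in TW at -0.28, 0.10, -0.17, -0.74 and -0.19 at ED, from -0.58 to 1.37 (median 0.71) over the 9 LD arrays, and 1.09, -0.12, 1.05, 0.26 and 0.67 at PO. It rose by 1.08 ± 0.33 (SE, adjusted p = 0.0153) in GC, without overlap, and by 0.84 ± 0.30 (SE, adjusted p = 0.0475) in TW. The TW call of INSIG1 was lost without any 1 of 7 arrays, TW ED 4 among them (adjusted p = 0.0703 to 0.117), and under 5 other settings (0.0607 to 0.146), and that of INSIG2 in GC without any 1 of 6 (0.0504 to 0.0799).

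Of the lipoprotein receptors, SCARB1 rose in GC and VLDLR in TW. SCARB1, the HDL receptor that takes up cholesteryl ester, lay in GC at -0.07, -0.76, -2.59, -0.67 and -1.20 at ED, 0.65, 1.29, 2.85, -0.29 and -1.03 at LD and 1.52, 3.18, 2.16, 1.77 and 2.02 at PO. GC LD 4 and GC LD 5 lay within the ED range, and GC LD 3, at 2.85, within the PO range. From ED to PO it rose 9.12-fold, 3.19 ± 0.64 (SE, adjusted p = 0.00124), the largest rise among the members in GC. In TW, SCARB1 lay at 1.33, 0.49, 1.33, 0.53 and 1.72 at ED, from 1.06 to 2.72 (median 1.90) over the 9 LD arrays, and 1.57, 3.09, 2.20, 1.47 and 1.85 at PO. TW arrays of all stages lay above all GC ED arrays, and the TW difference of 0.96 ± 0.36 (SE, adjusted p = 0.0581) was not called. VLDLR, a receptor of triglyceride-rich lipoproteins, lay in TW at -1.50, -0.78, -1.20, -2.51 and -0.45 at ED, from -1.19 to 0.98 (median -0.45) over the 9 LD arrays, and 1.25, 1.30, 0.63, 0.36 and 0.52 at PO. Every PO array was above every ED array, and the rise was 4.29-fold, 2.10 ± 0.45 (SE, adjusted p = 0.00326). In GC, VLDLR spread widely within each stage, at 0.93, 2.32, 0.69, 2.62 and 1.00 at ED, 0.33, 2.51, 2.52, 2.25 and 0.70 at LD and 0.47, 2.72, 0.88, 2.01 and 0.57 at PO, and differed by -0.18 ± 0.58 (SE, adjusted p = 0.821) from ED to PO. The interaction was 2.23 ± 0.73 (SE, adjusted p = 0.0216) for SCARB1 and -2.28 ± 0.74 (SE, adjusted p = 0.0208) for VLDLR.

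Of the 4 genes for lysosomal release and transfer, LIPA was lower in GC than in TW and NPC2 higher, while NPC1 (0.05 ± 0.18 (SE, adjusted p = 0.823)) and STARD4 (0.13 ± 0.31 (SE, adjusted p = 0.744)) were not called between layers. LIPA, the acid lipase that frees cholesterol from lipoprotein esters, lay in GC at -3.50, -5.37, -5.52, -4.18 and -4.04 at ED, -2.86, -6.30, -5.03, -3.47 and -3.27 at LD and -4.52, -3.99, -5.14, -4.88 and -5.53 at PO, and in TW at -0.54, -1.38, -0.14, -1.41 and -1.32 at ED, from -2.53 to 0.48 (median -0.28) over the 9 LD arrays, and -1.37, -2.41, -1.99, -1.46 and -1.92 at PO. All 15 GC arrays were below all 19 TW arrays, 10.2-fold lower on average, -3.35 ± 0.31 (SE, adjusted p = 9.28e-11), and no stage comparison was called. The difference was -2.25 with the deposited values and -1.63 with normexp and quantile normalization, both called. NPC1, which with NPC2 moves that cholesterol out of the lysosome, lay in GC at -0.12, 0.56, -0.10, 1.02 and -0.24 at ED, 0.51, 1.31, 1.72, 0.74 and -0.29 at LD and 1.17, 1.66, 1.71, 2.36 and 1.65 at PO. It rose by 1.49 ± 0.37 (SE, adjusted p = 0.00504) from ED to PO, without overlap, while the TW difference was 0.49 ± 0.28 (SE, adjusted p = 0.208), and the difference between these changes was not called (1.00 ± 0.47 (SE, adjusted p = 0.104)). NPC2 lay in GC at 5.65, 5.46, 4.47, 5.34 and 4.35 at ED, 5.24, 4.84 and 5.25 at LD and 4.81, 4.86, 4.80, 4.67 and 4.99 at PO, with GC LD 2 and GC LD 4 left out for outlier flags, and in TW at 3.72, 3.44, 3.74, 3.73 and 3.90 at ED, from 3.90 to 5.24 (median 4.41) over the 9 LD arrays, and 4.81, 4.5 and 4.48 at PO, with TW PO 2 and TW PO 3 left out likewise. In TW the 3 measured PO arrays and all 9 LD arrays lay above all ED arrays (TW LD 8 and TW ED 5 both round to 3.90). The rise of NPC2 from ED to PO there was 0.89 ± 0.24 (SE, adjusted p = 0.0138). Its 4 other probes gave 0.58 to 0.90, but they overlap the chosen probe almost wholly and are no independent measure. The change of NPC2 in GC was -0.23 ± 0.27 (SE, adjusted p = 0.525) and the interaction -1.12 ± 0.36 (SE, adjusted p = 0.0211). Without TW PO 1 both calls of NPC2 were lost (adjusted p = 0.0606 and 0.0582), and its interaction call also with median centring (-0.84, 0.0709). STARD4, a sterol carrier between membranes, was called in no comparison, and its GC difference from ED to PO was 1.55 ± 0.71 (SE, adjusted p = 0.0897) with GC PO 4 at -6.52 against -3.31 to -2.87 on the other PO arrays.

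SOAT1 and ABCG1, of the 3 storage and efflux genes, rose in the theca wall. SOAT1, which esterifies cholesterol for storage in droplets, lay in TW at -1.91, -2.56, -1.77, -3.53 and -1.80 at ED, from -2.68 to -0.49 (median -1.38) over the 9 LD arrays, and 0.28, -1.48, 0.48, -1.36 and 0.39 at PO. All PO arrays were above all ED arrays, and the PO arrays themselves fell apart, with TW PO 1, 3 and 5 from 0.28 to 0.48 and TW PO 2 and 4 at -1.48 and -1.36. The rise was 3.93-fold, 1.98 ± 0.47 (SE, adjusted p = 0.00552). SOAT1 in GC lay at -1.18, -1.99, -1.86, -1.98 and -1.19 at ED, 0.67, -1.74, -1.44, -1.33 and -1.74 at LD and -1.43, -1.43, -0.89, -1.33 and -0.91 at PO, with a difference of 0.44 ± 0.40 (SE, adjusted p = 0.395). The changes of SOAT1 in GC and TW were not called different (-1.54 ± 0.63 (SE, adjusted p = 0.0658)). ABCG1, which exports cholesterol to HDL, lay in TW at -4.4, -5.82, -5.38, -4.57 and -4.64 at ED, from -4.83 to -2.39 (median -3.84) over the 9 LD arrays, and -1.91, -2.75, -2.27, -2.34 and -2.17 at PO. The difference from ED to LD, 1.30 ± 0.36 (SE, adjusted p = 0.128), was not called. From LD to PO it rose by 1.37 ± 0.36 (SE, adjusted p = 0.0179), and 4 of 5 PO arrays lay above all LD arrays. Over both steps the rise was 6.39-fold, 2.68 ± 0.40 (SE, adjusted p = 0.000556), and above 0 within each of the 5 slides (2.23 to 3.11). It was called but smaller with the deposited values (1.77) and with normexp and quantile normalization (1.09, and 0.63 from LD to PO).

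In GC, ABCG1 was well above background on 0 of 5 ED, 1 of 5 LD and 3 of 5 PO arrays, at -8.20, -9.11, -8.49, -8.07 and -9.45 at ED, -6.11, -8.08, -6.06, -7.44 and -9.34 at LD and -6.64, -5.58, -6.46, -5.72 and -7.04 at PO. Against the lowest signal that counted as well above background on each ED array, the PO mean was 2.77-fold higher. That mean includes PO arrays not well above background, so the figure is no strict lower bound, and it has no test. The interaction of ABCG1, fitted on all 34 arrays with these dim values, was -0.30 ± 0.69 (SE, adjusted p = 0.78). ABCA1, the exporter that loads nascent HDL, lay in TW at -5.37, -6.14, -5.86, -5.71 and -6.51 at ED, from -7.05 to -4.28 (median -4.75) over the 9 LD arrays, and -5.26, -5.04, -6.0, -6.25 and -5.74 at PO, with no stage comparison called. In GC it lay at -6.69, -8.01, -6.82, -5.86 and -6.82 at ED, -6.02, -8.20, -9.13, -5.19 and -7.02 at LD and -8.57, -8.18, -8.95, -7.96 and -7.94 at PO. It was well above background on 3 of 5 ED, 2 of 5 LD and 0 of 5 PO arrays. Taken in the same way, the ED mean was 1.23-fold above PO. It too includes arrays not well above background, so this is no strict lower bound. The fitted GC difference, -1.48 ± 0.62 (SE, adjusted p = 0.0634), was not called. The plot of uptake, storage and efflux genes shows these levels.

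**Figure D4:**
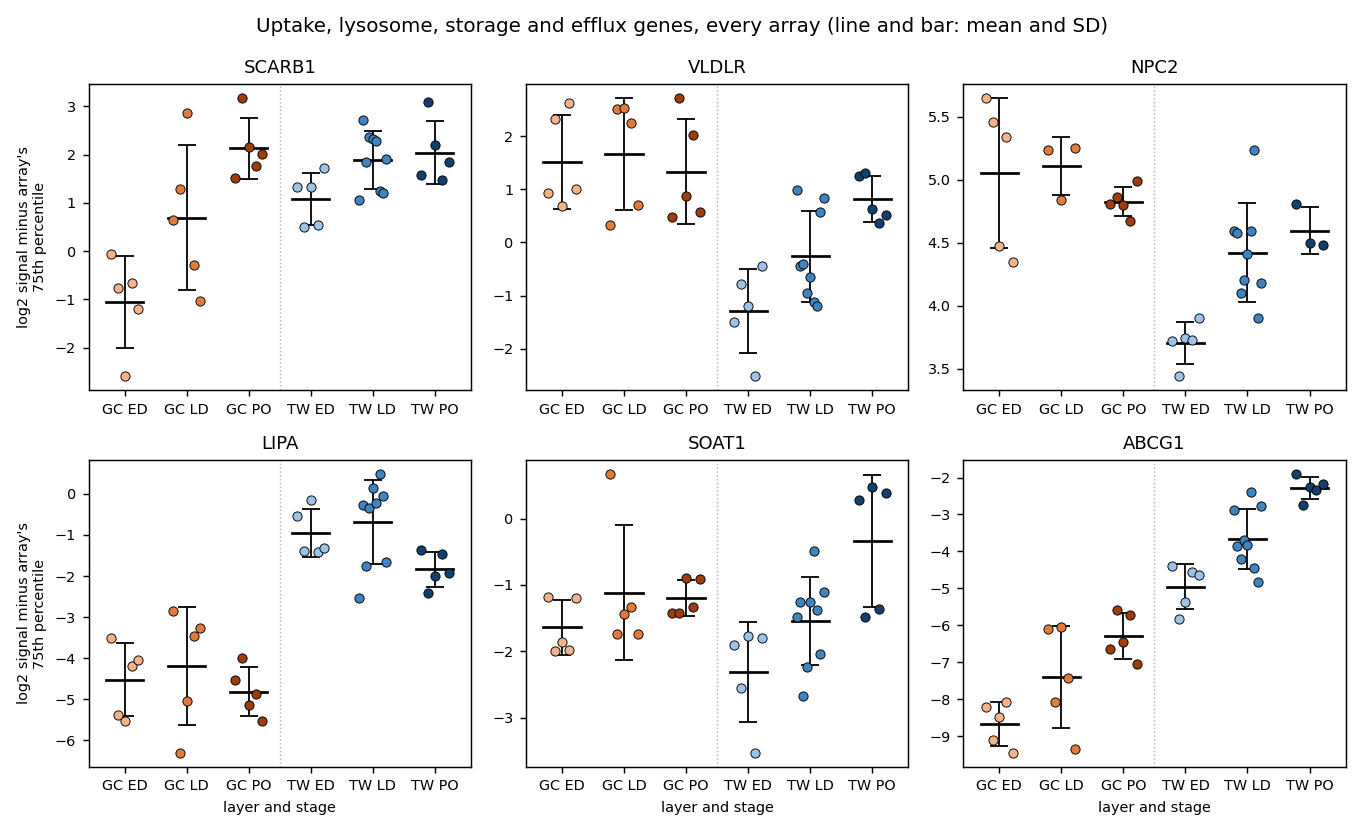
Level of 6 uptake, lysosomal, storage and efflux genes on each array, as log2 signal minus the array's 75th percentile, for GC and TW at ED, LD and PO; dots are arrays, lines and bars the mean and SD. SCARB1 climbs in GC, VLDLR, SOAT1 and ABCG1 climb in TW, and LIPA keeps GC between -6.30 and -2.86, below all TW arrays; 4 of 15 GC values of ABCG1 are well above background.

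Leukocyte and macrophage markers moved with the TW changes: all 10 were called higher at PO than at ED (median 1.79; mean level -1.51 to -0.32 at ED and 0.03 to 1.56 at PO), as were 4 of 7 endothelial markers. Of the 10, 8 were well above background on all 5 ED and all 5 PO arrays, and their part in the TW changes was not tested. In all, 6 of 31 members were called higher in TW from ED to PO (INSIG1, INSIG2, VLDLR, NPC2, SOAT1 and ABCG1) and 1 lower (SCAP), against 13.9% and 12.4% of all features. The median was 0.26 for the members and 0.04 for all features.

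Averaged over the stages, 4 of 31 members were called higher in GC than in TW and 12 lower, against 22.5% and 30.2% of all features. With median centring the split was 15 higher and 5 lower, as the median of all features moved from -0.08 to 0.50. The higher ones were VLDLR (1.75), SREBF1 (1.43), NPC2 (0.75) and SCAP (0.74), positive under all 5 scalings. The lower ones were led by ABCG1 (-3.82, with 4 of 15 GC arrays well above background and so only an approximate size), LIPA (-3.35), ABCA1 (-1.88, well above background on 5 of 15), TM7SF2 (-1.32) and MVK (-1.25). SC5D (-1.13), SCARB1 (-1.08), IDI1 (-0.77), ACAT2 (-0.67) and MSMO1 (-0.61) were also lower, as were MVD (-0.48) and SQLE (-0.47), both of which turned to 0.10 with median centring. SQLE also lost its call without any 1 of 7 arrays (adjusted p = 0.05 to 0.0592). ACAT2, IDI1, SCARB1, SC5D and MSMO1 were not called with median centring (0.088 to 0.895). With normexp and quantile normalization ABCG1 was at -0.75 and ABCA1, not called, at -0.10 (0.123). With the deposited values they were at -1.44 and -0.29. Only slides 2 and 8 hold both layers, at LD alone, where the members' median was -0.72 and -0.75, and with slide as a fixed block 6 members were called.

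The group means of the other synthesis genes follow, as mean level ± SD over 5 arrays (9 for TW at LD) unless another n is given. HMGCS1 averaged 0.26 ± 0.42, 0.72 ± 0.51 and 1.15 ± 0.69 over the GC stages ED, LD and PO, and 0.02 ± 0.70, 0.89 ± 0.81 (n = 8) and 0.01 ± 0.46 over those of TW. For IDI1 the means were 1.98 ± 0.49, 2.90 ± 0.92 and 3.46 ± 1.11 over the GC stages ED, LD and PO, and 3.42 ± 0.26, 3.97 ± 0.82 and 3.26 ± 0.51 (n = 4) over those of TW. In both, the GC mean was highest at PO and the TW mean at LD. FDFT1 had means of 2.03 ± 0.17, 2.62 ± 0.39 and 3.16 ± 0.38 over the GC stages ED, LD and PO, and 2.71 ± 0.23, 3.38 ± 0.39 and 2.46 ± 0.37 over those of TW. SQLE averaged 2.75 ± 0.29, 3.05 ± 0.37 and 3.50 ± 0.16 over the GC stages ED, LD and PO, and 3.44 ± 0.78, 3.98 ± 0.66 (n = 8) and 3.28 ± 0.46 over those of TW. LSS had -3.00 ± 0.36, -3.12 ± 0.24 and -2.15 ± 0.44 over the GC stages ED, LD and PO, and -2.74 ± 0.42, -2.43 ± 0.47 and -2.11 ± 0.57 over those of TW. The mean of LSS was highest at PO in both layers, unlike that of FDFT1 and SQLE, which in TW was highest at LD. MSMO1 averaged 3.63 ± 0.44, 4.57 ± 0.82 and 5.13 ± 0.37 over the GC stages ED, LD and PO, and 4.80 ± 0.47, 5.44 ± 0.52 (n = 8) and 4.90 ± 0.34 over those of TW, with TW LD 2, TW LD 3 and TW LD 4 saturated. HSD17B7 had means of 1.33 ± 0.33 (n = 4), 2.84 ± 1.42 and 4.14 ± 0.33 over the GC stages ED, LD and PO, and 2.69 ± 0.61 (n = 4), 4.25 ± 0.32 (n = 5) and 3.44 ± 0.82 (n = 3) over those of TW. EBP averaged 2.19 ± 0.23, 2.94 ± 0.76 and 3.71 ± 0.33 over the GC stages ED, LD and PO, and 3.14 ± 0.29, 3.82 ± 0.55 and 2.98 ± 0.37 over those of TW. For all 3, TW was highest at LD and GC at PO. SC5D had means of 0.70 ± 0.70, 1.76 ± 0.77 (n = 4) and 2.45 ± 1.23 over the GC stages ED, LD and PO, and 2.36 ± 0.31 (n = 4), 3.32 ± 0.77 (n = 6) and 2.61 ± 0.77 over those of TW. Among the sensing and transfer genes, SREBF2 averaged -4.68 ± 0.45, -4.36 ± 0.51 and -4.33 ± 0.23 over the GC stages ED, LD and PO, and -4.61 ± 0.43, -4.26 ± 0.51 and -4.19 ± 0.46 over those of TW. STARD4 had -5.26 ± 0.89, -4.02 ± 1.08 and -3.71 ± 1.58 over the GC stages ED, LD and PO, and -5.03 ± 1.01, -4.07 ± 0.34 and -4.28 ± 0.38 over those of TW. Where an n is below the full number, the other arrays carried outlier flags on that probe. HSD17B7 and SC5D each had a second probe that was well above background on 34 arrays. From LD to PO in TW, that of HSD17B7 differed by -0.28, against -0.81 on the chosen probe. For SC5D the second probe gave -0.66, against -0.71.

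The means of the members given above by array follow in the same form, in the order ED, LD and PO. ACAT2, PMVK and MVD had their highest mean at PO in GC and at LD in TW. ACAT2 averaged 2.23 ± 0.24, 3.02 ± 0.51 and 3.89 ± 0.35 in GC, and 3.77 ± 0.13, 4.10 ± 0.53 and 3.28 ± 0.35 in TW. PMVK averaged 0.65 ± 0.36, 1.09 ± 0.41 and 1.79 ± 0.27 in GC, and 0.99 ± 0.60, 1.76 ± 0.48 and 1.27 ± 0.53 in TW. MVD averaged -0.72 ± 0.15, -0.34 ± 0.53 and 0.18 ± 0.52 in GC, and 0.07 ± 0.18, 0.73 ± 0.45 and -0.24 ± 0.36 in TW. CYP51A1, TM7SF2 and NSDHL had their highest mean at PO in GC and at LD in TW. CYP51A1 averaged 3.78 ± 0.30 (n = 4), 4.47 ± 0.54 and 5.29 ± 0.27 in GC, and 4.20 ± 0.23, 4.80 ± 0.50 and 4.42 ± 0.38 in TW. TM7SF2 averaged -0.51 ± 0.68, 0.36 ± 1.44 and 2.56 ± 0.39 in GC, and 2.01 ± 0.25, 2.48 ± 0.80 and 1.86 ± 0.50 in TW. NSDHL averaged 0.98 ± 0.45, 2.07 ± 0.79 and 3.56 ± 0.28 in GC, and 2.05 ± 0.23, 2.47 ± 0.53 and 1.66 ± 0.26 in TW. INSIG1 had its highest mean at PO in GC and at LD in TW. INSIG1 averaged -0.41 ± 0.42, -0.13 ± 0.65 and 0.68 ± 0.44 in GC, and -0.25 ± 0.31, 0.67 ± 0.55 and 0.59 ± 0.52 in TW. MVK, DHCR7 and INSIG2 had their highest mean at PO in GC and at PO in TW. MVK averaged -2.76 ± 0.57, -2.01 ± 1.07 and -0.28 ± 0.34 in GC, and -0.82 ± 0.47, -0.31 ± 0.46 and -0.16 ± 0.14 in TW. DHCR7 averaged 2.25 ± 0.50, 3.23 ± 1.15 and 4.73 ± 0.21 in GC, and 2.55 ± 0.27, 3.21 ± 0.46 and 3.22 ± 0.35 in TW. INSIG2 averaged -1.17 ± 0.50, -0.33 ± 0.57 and -0.26 ± 0.39 in GC, and -1.59 ± 0.18, -0.68 ± 0.44 and -0.45 ± 0.47 in TW. SCARB1, NPC1 and ABCG1 had their highest mean at PO in GC and at PO in TW. SCARB1 averaged -1.06 ± 0.95, 0.69 ± 1.49 and 2.13 ± 0.64 in GC, and 1.08 ± 0.54, 1.88 ± 0.60 and 2.04 ± 0.65 in TW. NPC1 averaged 0.22 ± 0.54, 0.80 ± 0.77 and 1.71 ± 0.42 in GC, and 0.55 ± 0.46, 0.98 ± 0.45 and 1.04 ± 0.47 in TW. ABCG1 averaged -8.66 ± 0.60, -7.41 ± 1.39 and -6.29 ± 0.62 in GC, and -4.96 ± 0.61, -3.66 ± 0.82 and -2.29 ± 0.30 in TW. VLDLR, NPC2 and SOAT1 had their highest mean at LD in GC and at PO in TW. VLDLR averaged 1.51 ± 0.89, 1.66 ± 1.06 and 1.33 ± 0.99 in GC, and -1.29 ± 0.79, -0.26 ± 0.85 and 0.81 ± 0.44 in TW. NPC2 averaged 5.05 ± 0.60, 5.11 ± 0.23 (n = 3) and 4.83 ± 0.11 in GC, and 3.71 ± 0.16, 4.42 ± 0.39 and 4.6 ± 0.18 (n = 3) in TW. SOAT1 averaged -1.64 ± 0.42, -1.11 ± 1.02 and -1.20 ± 0.27 in GC, and -2.31 ± 0.75, -1.55 ± 0.66 and -0.34 ± 0.99 in TW. SREBF1 and ABCA1 had their highest mean at ED in GC and at LD in TW. SREBF1 averaged -2.36 ± 0.55, -3.10 ± 1.33 and -2.89 ± 0.62 in GC, and -4.37 ± 0.41, -3.94 ± 0.37 and -4.32 ± 0.97 in TW. ABCA1 averaged -6.84 ± 0.77, -7.11 ± 1.59 and -8.32 ± 0.43 in GC, and -5.92 ± 0.43, -5.06 ± 0.87 and -5.66 ± 0.50 in TW. SCAP had its highest mean at ED in GC and at ED in TW. SCAP averaged 5.21 ± 0.51, 5.00 ± 0.44 and 5.20 ± 0.10 in GC, and 4.75 ± 0.04 (n = 4), 4.63 ± 0.54 and 3.81 ± 0.22 in TW. LIPA had its highest mean at LD in GC and at LD in TW. LIPA averaged -4.52 ± 0.88, -4.19 ± 1.44 and -4.81 ± 0.59 in GC, and -0.96 ± 0.59, -0.69 ± 1.03 and -1.83 ± 0.42 in TW.

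Most synthesis genes also varied together among arrays of the same group. With each group's mean taken off, a synthesis gene's deviation correlated with the mean of the other 16 at a median Pearson r of 0.75 (0.29 for LSS to 0.91 for EBP, over up to 34 arrays). On the GC arrays alone HMGCS1 (-0.07), LSS (-0.20) and NSDHL (0.36) had the lowest r, against 0.90, 0.57 and 0.89 on the TW arrays. The same measure against the synthesis mean had a median of 0.02 over 36608 kept probes, with quartiles of -0.16 and 0.20. INSIG1 (0.68) and SCARB1 (0.60) came next among the other members, then SCAP (0.50), INSIG2 and STARD4 (0.48 each) and NPC1 (0.47). SREBF2 (0.06), NPC2 (-0.10), SREBF1 and VLDLR (-0.12 each) and ABCA1 (-0.17) did not follow. These values describe arrays that share RNA quality, hybridisation and scaling, and TW LD 1, GC LD 3, TW ED 4 and GC LD 5 lay farthest from their groups' means.

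Other genes of the pathway, 41 of which were tested in GC and 42 in TW, gave a mixed picture. From ED to PO in GC, 15 of 41 rose (36.6%) and 6 fell (14.6%), against 21.6% and 22.4% of all features. STAR, which brings cholesterol into mitochondria, was at 3.95 ± 1.06 (SE, adjusted p = 0.00769), the oxysterol receptor NR1H2 at 2.81 ± 0.73 (SE, adjusted p = 0.00659) and the lipid transfer protein STARD5 at 2.58 ± 0.49 (SE, adjusted p = 0.00096). On the other side stood the scavenger receptor CD36 at -4.54 ± 1.48 (SE, adjusted p = 0.0222), LBR at -3.22 ± 0.42 (SE, adjusted p = 0.000183) and MYLIP, a ligase that degrades lipoprotein receptors, at -2.90 ± 0.53 (SE, adjusted p = 0.000745). LBR, a protein of the inner nuclear membrane with the same sterol reductase activity as TM7SF2, went from a mean level of -0.35 at ED to -3.57 at PO, with all 5 PO arrays below all ED arrays, as TM7SF2 went from -0.51 to 2.56. From LD to PO in GC, 6 of 41 rose (14.6%, against 6.77% of all features), STARD3NL, a late endosome tether (1.77), and TSPO, a mitochondrial outer membrane protein (1.73), among them, and LBR alone fell (-1.88; 2.44%, against 10.7%).

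From LD to PO in TW, 3 of 42 rose (7.14%) and 5 fell (11.9%), against 8.74% and 6.86% of all features. CH25H, which makes an oxysterol, was at 2.37 ± 0.64 (SE, adjusted p = 0.0214) and PLIN2, a coat protein of lipid droplets, at 1.54 ± 0.42 (SE, adjusted p = 0.0223). ACSS2, which makes acetyl-CoA from acetate, was at -1.18 ± 0.34 (SE, adjusted p = 0.0276), the droplet protein PLIN3 at -1.14 ± 0.27 (SE, adjusted p = 0.0128) and ERG28, a scaffold of sterol demethylation, at -0.95 ± 0.26 (SE, adjusted p = 0.0218). PLIN2 rose from ED to PO in both layers (1.49 in GC and 1.99 in TW), while PLIN3 rose in GC (1.30) and fell in TW (-1.20), a pair singled out after the values were seen. Between the layers, 10 of 42 were higher in GC (23.8%) and 21 lower (50%), against 22.5% and 30.2% of all features. LRP8 (2.56) and the ester hydrolase NCEH1 (2.41, well above background on 13 of 19 TW arrays) were among the higher, and CH25H (-3.87), the sterol hydroxylase CYP27A1 (-3.14) and STAR (-2.85) among the lower.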

How the data were processed

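Gene expression was measured on 1-colour Agilent arrays, 34 in all on 10 slides, from horse granulosa cells (15) and theca wall (19). Per the file headers, the deposited scanner files hold spot intensity values that Agilent Feature Extraction 9.5.3.1 background-corrected (the submitters' processing notes name version 9.1). The authors also deposited log2 values, which matched quantile-normalized log2 mean signals with a correlation of 1 on each array; they served as an alternative.

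Processed signals were put on the log2 scale and scaled by subtracting the 75th percentile of an array's non-control probes. Outlier-flagged spots were left out, saturated ones kept, and spots of a probe averaged. A gene was represented by its kept probe of highest mean. Gene names came from the gene numbers, symbols and accessions of the array files, looked up in a RefSeq gene table of another assembly. That table was used for names only. A further 42 probes were named by the protein name in their description. limma 3.58.1 (R 4.3.3; lmFit and eBayes, two-sided) was fitted to the GC arrays or the TW arrays for stages, and to all 34 for layer and interaction, and p-values were adjusted over all features. The fit was tested on simulated data. Figures were drawn with matplotlib 3.10.9. The number of arrays limits the precision, and p-values weigh a difference between groups against the spread between arrays within groups.

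Members and lists were chosen with earlier results of these data known. Every measured member is given its group means; those called also got their array values, up to 4 per pathway step by adjusted p; other pathway genes were named up to 3 per direction by size. The alternatives were quantile normalization, normexp, median centring, the deposited values, other filters on dim probes, the mean of a gene's probes, slide as a block, all arrays in 1 fit, no slide 7 and leaving out each array. The design text places every group on every slide, but the slides seen in the files do not.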

Additional observations from a re-analysis of the deposited data

Results flagged for a closer look

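In 22 of 183 pairs of a gene and a group of arrays, 1 array stood apart from the rest by Dixon's criterion, which chance meets in about 1 of 20 groups. TW ED 4 was the lowest TW ED array for 8 genes, given with its level and that of the nearest array: ACAT2 (3.53, nearest 3.80), HMGCS1 (-1.20, nearest 0.08), PMVK (-0.06, nearest 1.04), MVD (-0.25, nearest 0.10), FDFT1 (2.31, nearest 2.75), SQLE (2.06, nearest 3.70), LSS (-3.46, nearest -2.71) and STARD4 (-6.83, nearest -4.68). TW LD 1 was the lowest TW LD array for 6 genes: HMGCS1 (-1.04, nearest 0.75), MVK (-1.36, nearest -0.50), FDFT1 (2.46, nearest 3.31), SQLE (2.49, nearest 3.83), TM7SF2 (0.62, nearest 2.00) and INSIG1 (-0.58, nearest 0.50). GC PO 4 was the lowest GC PO array for IDI1 (1.5, nearest 3.74), SC5D (0.32, nearest 2.51) and STARD4 (-6.52, nearest -3.31). The other arrays stood apart for 1 gene each. GC ED 3 was low for FDFT1 (1.74, nearest 2.07), TW PO 5 for FDFT1 (1.82, nearest 2.54) and TW LD 3 for ABCA1 (-7.05, nearest -5.66). GC LD 3 was high for MVK (-0.11, nearest -2.34) and GC LD 1 for SOAT1 (0.67, nearest -1.33).

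The change from ED to PO differed between the layers for 14 members by the limma interaction. As the GC change minus the TW change on the log2 scale, it was positive for ACAT2 (2.15), TM7SF2 (3.23), DHCR7 (1.81), MVK (1.82), SCARB1 (2.23), HSD17B7 (2.07), CYP51A1 (1.29), MVD (1.20), FDFT1 (1.38), MSMO1 (1.39), EBP (1.68) and NSDHL (2.97). It was negative for NPC2 (-1.12) and VLDLR (-2.28).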

How the results depend on the processing

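Counts of members called are given first as reported. With all 34 arrays in 1 fit, the count went from 0 to 2 for GC LD against ED and from 6 to 10 for GC PO against LD. With slide as a fixed block it went from 7 to 3 for TW PO against LD and from 16 to 6 for GC against TW. Without 1 array at a time, counts ran from 0 to 2 for GC LD against ED, 3 to 15 for GC PO against LD, 17 to 22 for GC PO against ED, 2 to 13 for TW PO against LD, 5 to 8 for TW PO against ED, 15 to 19 for GC against TW and 12 to 16 for the interaction, and stayed at 0 for TW LD against ED. SQLE and MVD, lower in GC than in TW as reported, were at 0.10 each with median centring (adjusted p = 0.65 and 0.53 by limma). The cause of these shifts was not tested. The replicate numbers were given in accession order and pair no samples by the labels. In GC, though, each number falls on 1 slide, so slide as a fixed block is also a replicate block there, with 0 members called for LD against ED, 5 for PO against LD and 22 for PO against ED. Dim signal limits ABCG1 and ABCA1 in GC, and outlier flags limit the chosen probes of HSD17B7, SC5D and NPC2.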
